A study of Mus musculus with 12 samples.

Results

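Cell cycle and DNA replication genes were followed in 3T3-L1 adipocytes, a mouse preadipocyte line that becomes lipid-filled fat cells under a hormone cocktail. The set was a list of 37 gene symbols, 24 acting in mitosis and 13 in DNA replication, taken by symbol from the array annotation. Of these, 34 had a transcript cluster on the arrays, 22 for mitosis and 12 for replication, among 19480 named genes in all. Each of the 34 genes had 1 cluster. Ccnb1, Foxm1 and Mcm7 were not analysed here.

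The 12 arrays covered 4 treatments, each at passages 6, 7 and 8 of the same line. The treatments were alpha-linolenic acid (ALA, an omega-3 fatty acid) at 50 µM together with a delta-6-desaturase inhibitor at 5 µM, ALA alone, the inhibitor alone, and a vehicle control of ethanol and DMSO. Delta-6-desaturase carries out the first step by which cells lengthen and desaturate ALA. Treatment began with differentiation at day 0 in confluent cells and lasted to day 8, when RNA was taken, and insulin stayed in the medium at 5 µg/ml. The labels state 2% fatty-acid-free albumin for the ALA medium and do not state it for the other media. All cultures came from 1 line, so the p-values speak of culture-to-culture spread in it, and passage cannot be told apart from the culture run or array handling that went with it. Each passage was sampled once, with its 4 arrays from the 4 treatments. The p-values and SDs of the passage comparisons therefore speak of spread among cultures within a passage, not between repeated passages. The series names ALA against control, inhibitor against control, and the combination against ALA, at an unadjusted p under 0.01; passages can also be compared because every treatment was run once at each.

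Genes of the 2 groups act one after the other in a dividing cell. Before S phase, Cdc6 and Cdt1 load the Mcm2 to Mcm7 helicase on DNA, the Pcna clamp then holds the polymerases in place, and ribonucleotide reductase and thymidylate synthase supply nucleotides. Cyclin-dependent kinase 1 with its A and B cyclins then drives mitosis, in which Polo and Aurora kinases, kinesin motors and the spindle checkpoint sort the chromosomes. Replication genes are known as targets of E2F factors, and many mitosis genes carry a CHR element bound by the DREAM and MuvB complexes. Confluent 3T3-L1 preadipocytes divide again early in differentiation and then leave the cycle, so day 8 lies after that burst.

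Values are log2 signals, so a difference of 1 is a doubling, and the level of one gene is not set against that of another because probes differ. Array medians lay between 6.14 and 6.27, and 26 of the 34 genes were above the highest of these medians on every array, while 0 were below the lowest on every array. Of 9 adipocyte genes, 9 were above the highest array median on every array, as were 7 of 8 preadipocyte and fibroblast genes and 0 of 9 macrophage, endothelial and muscle genes, of which 7 were below the lowest median on every array. Over the 12 arrays the list means were 11.44 to 11.73, 9.54 to 10.09 and 4.83 to 5.14 in that order, which rest on different probes and are not ranked. The ALA array of passage 7 stood apart, with correlations to the others of 0.976 to 0.987, against 0.989 to 0.994 among the other 11. For passage 8 against 7 and for comparisons with ALA, values without it are given beside the called genes and part of the other named genes. Where no such value is given, the gene may still have changed without that array.

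Passage 8 had the highest signals of the set. The highest array lay in passage 8 for 30 of the 34 genes, 20 mitosis and 10 replication genes, and the lowest lay there for 1. The 4 exceptions at the top were Birc5 and Kif18b, both highest in the control array of passage 6, Mcm2, highest with ALA plus inhibitor at passage 6, and Cdt1, highest with ALA at passage 7. The spread between a gene's lowest and highest array was 0.38 for E2f1, 0.80 at the median and 1.76 for Bub1b. The mean of all 34 genes was 7.46 to 7.68 on the passage 6 arrays, 7.49 to 7.58 on the passage 7 arrays and 7.83 to 7.99 on the passage 8 arrays. The passage 8 arrays therefore did not overlap with the others in this mean, whereas passages 6 and 7 overlapped. In bulk RNA, more cells in cycle and more of these RNAs per cell cannot be told apart.

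**Figure D1:**
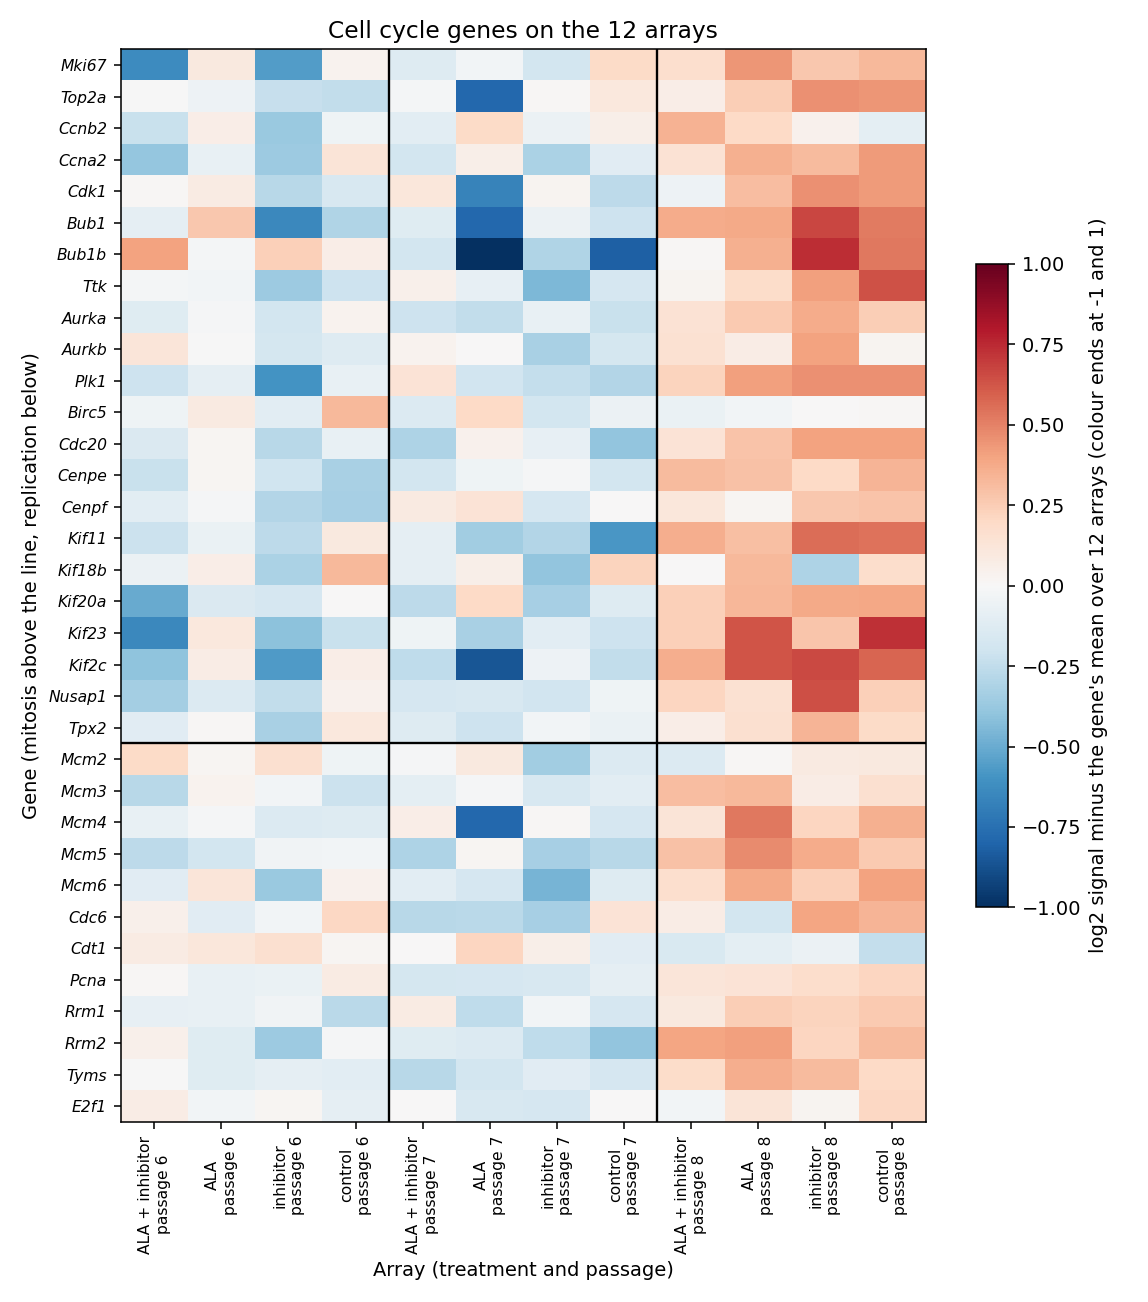
Log2 signal of each of the 34 genes on each of the 12 arrays, as the difference from that gene's mean over the 12 arrays, with passages 6, 7 and 8 from left to right. The passage 8 columns are red for most genes (30 of the 34 have their highest array there), and Birc5, Kif18b, Mcm2 and Cdt1 depart from this.

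Passage took the larger part of the variation in these genes. Split by a linear model with treatment (3 degrees of freedom) and passage (2 of 11), the median share of the sum of squares in the 34 genes was 67.3% for passage and 9.18% for treatment, with 20.2% left over. Over all 22104 clusters the same medians were 23.4%, 25.3% and 43.8%. Passage held more than 50% in 25 of the 34 genes, or 73.5%, against 15.1% of all clusters. Among single genes the share of passage was 90.7% for Tyms, 87.4% for Pcna and 85.2% for Aurka, and it was 2.95% for Kif18b, where treatment held 90.1%.

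Passage 8 was set against passage 6 in a limma model with treatment and passage as terms (4 arrays each). Of the 34 genes, 31 were higher in passage 8, 21 of 22 mitosis and 10 of 12 replication genes. The median log2 difference was 0.45 over the mitosis genes and 0.33 over the replication genes, against -0.01 over all clusters. At a Benjamini-Hochberg adjusted p under 0.05, limma called 8 of the 34 genes, all higher in passage 8, where 1.91% of all clusters were called and 1.31% were called higher. At an unadjusted p under 0.01 there were 17, again all higher, where 5.95% of clusters passed and 3.58% passed upward. All 4 passage 8 arrays lay above all 4 passage 6 arrays in 23 of the genes, where 7.13% of clusters did so. In 25 genes passage 8 was higher than passage 6 within each of the 4 treatments, where 13.4% of clusters were.

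The passage 8 against 7 comparison shares the passage 8 arrays with the first and is no second sample of passage 8. Here 33 of 34 genes were higher in passage 8, with Cdt1 the exception, and the median difference was 0.46 over the mitosis and 0.33 over the replication genes (-0.02 over all clusters). Limma called 6 genes at an adjusted p under 0.05, all higher, where 0.864% of clusters were called and 0.692% were called higher. At an unadjusted p under 0.01 there were 19, all higher, where 7.08% of clusters passed and 4.05% passed upward. The arrays did not overlap, with passage 8 above, in 21 genes, where 6.89% of clusters did so, and 25 were higher within every treatment, where 14.9% of clusters were.

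Passage 7 set against passage 6 gave 0 calls at an adjusted p under 0.05 by limma, where 0% of clusters were called, and 1 at an unadjusted p under 0.01, where 2.09% of clusters passed. That gene was Bub1b. Of the 34 genes, 11 were higher and 23 lower in passage 7, with medians of -0.03 over the mitosis and -0.11 over the replication genes. These medians did not follow the passage number step by step, and single genes could differ from them.

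The counts of adjusted calls in both passage 8 comparisons could change when a single array was left out, also an array of the passage not compared. In passage 8 against 6, the count was again 8 without the ALA array of passage 7, of which 7 were called in both (Plk1 was lost and Kif2c gained), 4 without the ALA array of passage 6, and 2 without the passage 7 array of ALA plus inhibitor or of the inhibitor. It was 0 without any 1 of the other 8 arrays: passage 6 or 8 of ALA plus inhibitor, passage 8 of ALA, passage 6 or 8 of the inhibitor, or passage 6, 7 or 8 of control. In passage 8 against 7, the count of 6 was 3 without the ALA array of passage 6, 2 without the passage 6 array of the inhibitor or of control, and 1 without passage 7 of ALA (Mcm5) or passage 8 of ALA plus inhibitor. It was 0 without any 1 of the other 7: passage 6 or 7 of ALA plus inhibitor, passage 8 of ALA, passage 7 or 8 of the inhibitor, or passage 7 or 8 of control. Calls over all 22104 clusters changed too. Without the ALA array of passage 7 they were 593 in the first comparison, against 423 with all arrays. In the second they were 55, against 191. For the other arrays the share over all clusters is not given here, so their counts are not read as results about the members. Counts at an unadjusted p under 0.01 were 11 (without the inhibitor array of passage 6) to 21 in the first comparison and 14 to 21 in the second. The medians stayed between 0.37 and 0.50 (mitosis) and 0.27 and 0.34 (replication) in the first, and between 0.41 and 0.49 and between 0.30 and 0.36 in the second.

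**Figure D2:**
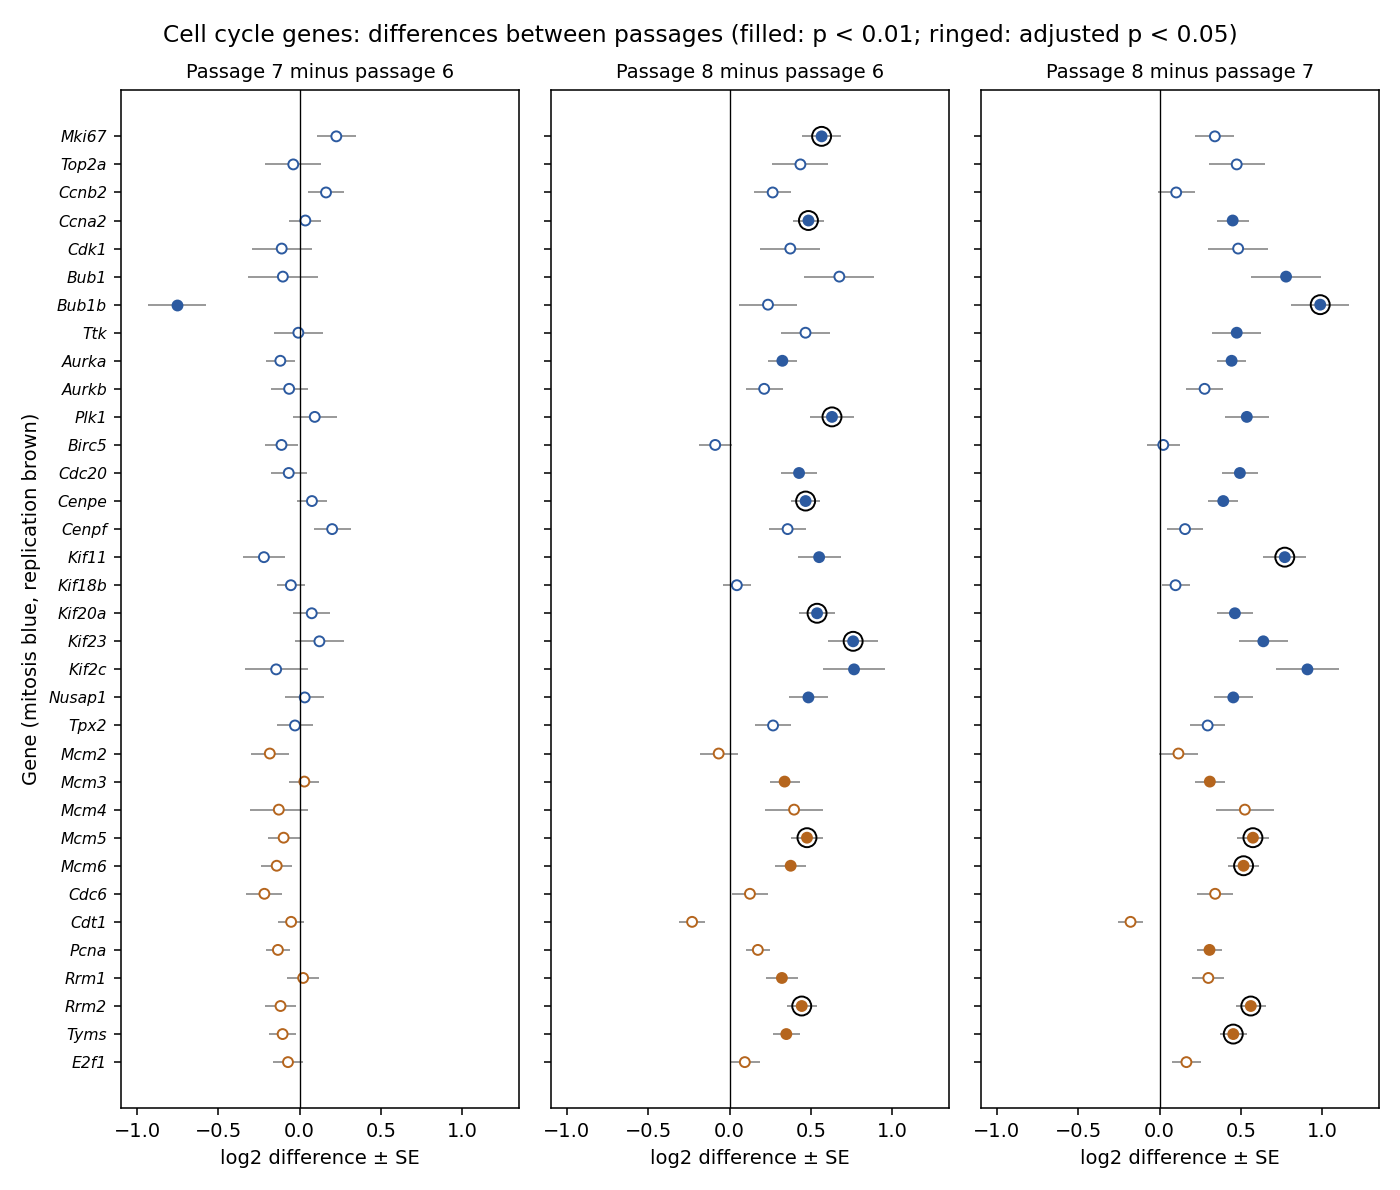
Log2 difference ± SE of each of the 34 genes between passages (limma, 4 arrays per passage), with mitosis genes in blue and replication genes in brown. Passage 8 is higher than passage 6 in 31 genes and than passage 7 in 33, with 8 and 6 ringed genes at an adjusted p under 0.05, while passage 7 minus 6 scatters about 0 with Bub1b as its only filled point.

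In the values by array, each passage is given in the order ALA plus inhibitor, ALA, inhibitor and control. Mki67, the Ki-67 protein that coats mitotic chromosomes and marks cycling cells, had signals of 8.03, 8.76, 8.11 and 8.70 at passage 6, of 8.54, 8.64, 8.48 and 8.85 at passage 7, and of 8.84, 9.11, 8.94 and 8.99 at passage 8. Every passage 8 array lay above every passage 6 array, and the control array of passage 7 overlapped with passage 8. Mki67 averaged 8.97 ± 0.12 at passage 8 and 8.40 ± 0.38 at passage 6 (SD, n = 4 each) and rose by 0.57 (SE 0.12, limma adjusted p = 0.0464).

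Among the cyclins and mitotic kinases, Ccna2, the A cyclin of S phase and early mitosis, had signals of 8.73, 9.04, 8.75 and 9.24 at passage 6, of 8.93, 9.17, 8.80 and 9.00 at passage 7, and of 9.26, 9.47, 9.43 and 9.54 at passage 8. All passage 8 values were above all others. Ccna2 rose by 0.49 in passage 8 against 6 (SE 0.10, limma adjusted p = 0.0383) and was 0.45 higher than in passage 7 (adjusted p = 0.0709). Plk1, the Polo kinase of mitotic entry and exit, averaged 9.21 ± 0.11 at passage 8 and 8.58 ± 0.24 at passage 6 (SD, n = 4 each) and rose by 0.63 (SE 0.14, limma adjusted p = 0.0492, and 0.0522 without the ALA array of passage 7).

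Cdk1, the kinase that starts mitosis, had signals of 7.87, 7.94, 7.58 and 7.70 at passage 6, of 7.97, 7.19, 7.89 and 7.59 at passage 7, and of 7.81, 8.17, 8.32 and 8.28 at passage 8. Its passage 8 array with ALA plus inhibitor lay within the range of passage 6, so the passages overlapped. The difference of 0.37 (SE 0.18) between passages 8 and 6 had a limma adjusted p of 0.389. Ccnb2, a B cyclin, overlapped as well, with a difference of 0.27 (SE 0.11). Of the Aurora kinases, Aurka, which builds the spindle poles, was 0.32 higher in passage 8 than in passage 6 (SE 0.09, unadjusted p = 0.00465), and Aurkb, which corrects attachments at the centromere, was 0.21 higher (SE 0.11).

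The spindle checkpoint, which holds mitosis until all chromosomes are attached, gave the gene with the widest spread. Bub1b, the BubR1 protein that restrains Cdc20, had signals of 7.37, 6.95, 7.21 and 7.04 at passage 6, of 6.79, 5.95, 6.67 and 6.15 at passage 7, and of 6.98, 7.33, 7.71 and 7.50 at passage 8. All passage 7 arrays lay below all others, and passages 6 and 8 overlapped. Bub1b rose by 0.99 in passage 8 against 7 (SE 0.18, limma adjusted p = 0.0406), and without the ALA array of passage 7 the difference was 0.88 with an adjusted p of 0.117. In passage 7 against 6 its difference was -0.75 (SE 0.18, unadjusted p = 0.00183, limma adjusted p = 0.459).

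The other checkpoint members had no adjusted call. Bub1, a checkpoint kinase, was 0.68 higher in passage 8 than in passage 6 (SE 0.22), and Ttk, the Mps1 kinase, was 0.47 higher (SE 0.15); in both, all 4 passage 8 arrays were above all 4 of passage 6. Cdc20, the activator of the anaphase-promoting complex and the target of the checkpoint, was 0.43 higher (SE 0.11, limma adjusted p = 0.0955).

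Kinesin motors held the 2 largest differences of passage 8 against 6. Kif23, the MKLP1 motor of the midzone between separating chromosomes, had signals of 6.04, 6.79, 6.28 and 6.47 at passage 6, of 6.65, 6.36, 6.58 and 6.48 at passage 7, and of 6.93, 7.31, 6.96 and 7.42 at passage 8. Every passage 8 array was above every other. Kif23 averaged 7.16 ± 0.25 at passage 8 and 6.40 ± 0.32 at passage 6 (SD, n = 4 each) and rose 1.69-fold (log2 difference 0.76, SE 0.15, limma adjusted p = 0.0377).

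Cenpe, the kinetochore motor that moves chromosomes to the spindle equator, had signals of 7.35, 7.59, 7.37 and 7.25 at passage 6, of 7.39, 7.53, 7.56 and 7.39 at passage 7, and of 7.89, 7.87, 7.77 and 7.92 at passage 8. The 4 passage 8 arrays were close together, at 7.86 ± 0.06 (SD, n = 4), and above all 8 others. Cenpe rose by 0.47 in passage 8 against 6 (SE 0.09, limma adjusted p = 0.033), and was 0.39 higher than in passage 7 (adjusted p = 0.0808).

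Kif11, the Eg5 motor that pushes the spindle poles apart, had signals of 6.61, 6.75, 6.56 and 6.92 at passage 6, of 6.73, 6.47, 6.53 and 6.24 at passage 7, and of 7.19, 7.12, 7.38 and 7.36 at passage 8. Here too passage 8 did not overlap with passages 6 and 7. Kif11 rose by 0.77 in passage 8 against 7 (SE 0.13, limma adjusted p = 0.0355), which without the ALA array of passage 7 was 0.78 with an adjusted p of 0.0973, and was 0.55 higher than in passage 6 (SE 0.13, adjusted p = 0.0725). Kif20a, the MKLP2 motor of cytokinesis, rose by 0.54 in passage 8 against 6 (SE 0.11, limma adjusted p = 0.0446).

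Other motor and spindle genes differed by similar amounts without an adjusted call. Kif2c, the MCAK kinesin that takes microtubules apart, was 0.77 higher in passage 8 than in passage 6 (SE 0.19, limma adjusted p = 0.0875) and 0.91 higher than in passage 7 (SE 0.19, adjusted p = 0.0678). Without the ALA array of passage 7, those differences were 0.77 (adjusted p = 0.0254) and 0.68 (adjusted p = 0.117). Nusap1, a spindle bundling protein, was 0.48 higher in passage 8 than in passage 6 (SE 0.12), Tpx2, the activator of Aurora A, was 0.27 higher (SE 0.11), and Cenpf, a kinetochore protein, was 0.36 higher (SE 0.11).

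Top2a, the topoisomerase that untangles sister chromosomes, had signals of 7.28, 7.23, 7.05 and 7.04 at passage 6, of 7.26, 6.50, 7.30 and 7.38 at passage 7, and of 7.35, 7.52, 7.74 and 7.72 at passage 8. Passage 8 was above passage 6 on every array but overlapped with the control array of passage 7, and the ALA array of passage 7 was far below the rest. The difference between passages 8 and 6 was 0.44 (SE 0.17, limma adjusted p = 0.272). Birc5, the survivin subunit of the chromosomal passenger complex, averaged 7.81 ± 0.03 at passage 8 and 7.90 ± 0.19 at passage 6 (SD, n = 4 each), a difference of -0.09 (SE 0.10).

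Among the helicase subunits, Mcm5 had signals of 6.74, 6.82, 6.97 and 6.98 at passage 6, of 6.69, 7.02, 6.67 and 6.73 at passage 7, and of 7.30, 7.47, 7.37 and 7.27 at passage 8. All 4 passage 8 arrays lay above the other 8. Mcm5 rose by 0.48 in passage 8 against 6 (SE 0.10, limma adjusted p = 0.0424) and by 0.57 against passage 7 (SE 0.10, adjusted p = 0.0355). The second difference was 0.65 without the ALA array of passage 7 (limma adjusted p = 0.0473). Mcm6 rose by 0.52 in passage 8 against 7 (SE 0.09, limma adjusted p = 0.0406), or 0.49 with an adjusted p of 0.106 without that array, and was 0.38 higher than in passage 6 (adjusted p = 0.0847).

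Mcm2, Mcm3 and Mcm4 had no adjusted call. Mcm2 had signals of 9.24, 9.07, 9.21 and 9.01 at passage 6, of 9.03, 9.15, 8.70 and 8.91 at passage 7, and of 8.91, 9.06, 9.14 and 9.15 at passage 8. The 3 passages overlapped, and the difference between passages 8 and 6 was -0.07 (SE 0.12). Mcm3 was 0.34 higher in passage 8 than in passage 6 (SE 0.09) and Mcm4 was 0.40 higher (SE 0.18). Whether Mcm2 differed from the other subunits in its passage difference was not tested.

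Neither of the 2 loading factors passed the test. Cdt1 had signals of 8.54, 8.57, 8.62 and 8.47 at passage 6, of 8.46, 8.67, 8.52 and 8.34 at passage 7, and of 8.31, 8.36, 8.40 and 8.22 at passage 8. It was the only one of the 34 genes (2.94%) with all passage 8 arrays below all passage 6 arrays, where 5.35% of clusters were. The difference was -0.23 (SE 0.08, unadjusted p = 0.0147, limma adjusted p = 0.2). Cdc6, which recruits the helicase to origins, was 0.13 higher in passage 8 than in passage 6 (SE 0.11) and 0.34 higher than in passage 7 (SE 0.11), with overlap in both.

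Of the nucleotide supply genes, Rrm2 and Tyms passed the test in a passage comparison. Rrm2, the S-phase subunit of ribonucleotide reductase, had signals of 7.97, 7.80, 7.55 and 7.91 at passage 6, of 7.79, 7.78, 7.66 and 7.52 at passage 7, and of 8.31, 8.33, 8.13 and 8.23 at passage 8. All passage 8 arrays were above the other 8. Rrm2 rose by 0.44 in passage 8 against 6 (SE 0.09, limma adjusted p = 0.0458) and by 0.56 against passage 7 (SE 0.09, adjusted p = 0.0336). The second was 0.58 without the ALA array of passage 7 (limma adjusted p = 0.0758). Tyms, thymidylate synthase, rose by 0.45 in passage 8 against 7 (SE 0.08, limma adjusted p = 0.0406), or 0.44 with an adjusted p of 0.0992 without that array, and was 0.35 higher than in passage 6 (adjusted p = 0.0706). Rrm1, the large reductase subunit, was 0.32 higher in passage 8 than in passage 6 (SE 0.10, adjusted p = 0.151).

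Pcna, the sliding clamp, had signals of 10.48, 10.39, 10.40 and 10.55 at passage 6, of 10.29, 10.30, 10.31 and 10.38 at passage 7, and of 10.58, 10.60, 10.65 and 10.68 at passage 8. The 3 passages did not overlap, with passage 7 lowest and passage 8 highest, yet the differences were small: 0.17 in passage 8 against 6 (SE 0.07, limma adjusted p = 0.313) and 0.31 against passage 7 (SE 0.07, adjusted p = 0.0844). E2f1, the transcription factor of S-phase genes, had signals of 7.21, 7.12, 7.16 and 7.05 at passage 6, of 7.15, 6.99, 6.98 and 7.15 at passage 7, and of 7.12, 7.28, 7.17 and 7.35 at passage 8. The passages overlapped and the difference between passages 8 and 6 was 0.09 (SE 0.09).

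**Figure D3:**
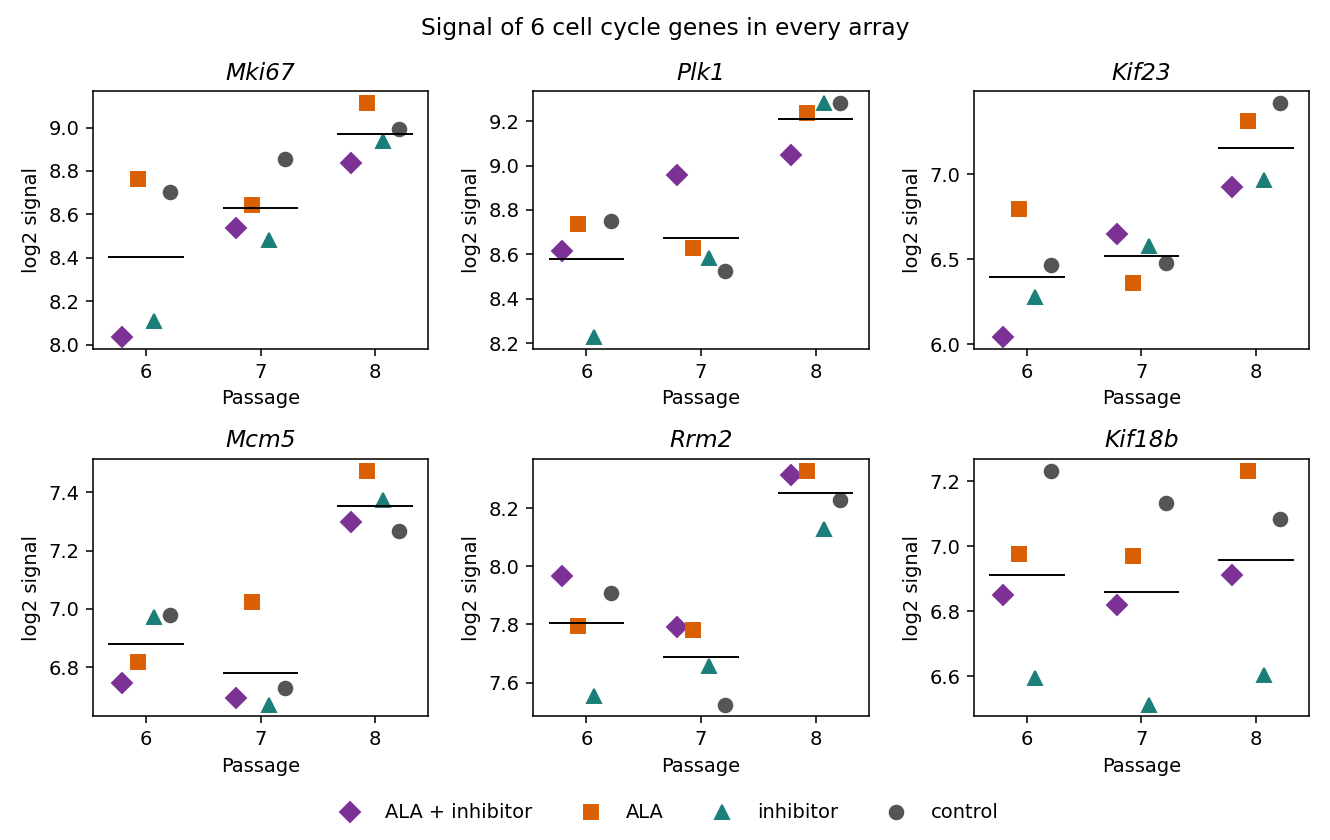
Log2 signal of 6 genes on every array, by passage, with the treatment as colour and shape and the mean of the 4 arrays of a passage as a line. In Plk1, Kif23, Mcm5 and Rrm2 all 4 passage 8 arrays lie above the other 8 and in Mki67 above those of passage 6, while in Kif18b the 3 inhibitor arrays lie at the bottom of every passage.

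The passage difference could be read within each treatment, with 1 array per passage. Passage 8 minus passage 6 had a median over the mitosis genes of 0.36 with ALA plus inhibitor, 0.27 with ALA, 0.68 with the inhibitor and 0.45 in control, and over the replication genes of 0.19, 0.27, 0.31 and 0.31 in the same order. With the inhibitor all 22 mitosis genes were higher in passage 8. Differences between treatments in this step were not tested, since each rests on 2 arrays.

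Lists of other genes of the same processes were read in the same fits. Of 45 other mitosis genes, 43 were higher in passage 8 than in passage 6 (median 0.34), and 13, or 28.9%, passed an unadjusted p under 0.01, where 5.95% of clusters did. The 1 that was called is 2.22% of the list, near the 1.91% of all clusters called and the 1.31% called higher. It was Dlgap5, a spindle protein, at 0.55 (SE 0.09, limma adjusted p = 0.0191). Against passage 7, 42 of the 45 were higher (median 0.36), 20 (44.4%) passed an unadjusted p under 0.01, where 7.08% of clusters did, and 6 (13.3%) were called, where 0.864% were. Without the ALA array of passage 7 the counts were 14 and 0, where 1072 of 22104 clusters passed and 55 were called. Among the 6 were Pbk, a mitotic kinase, at 0.84 (SE 0.13, limma adjusted p = 0.0286), Ndc80, which ties kinetochores to microtubules, at 0.77 (SE 0.12, same adjusted p) and Dlgap5 at 0.56 (SE 0.09, adjusted p = 0.0336), which without that array were at 0.79, 0.71 and 0.60.

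Of 42 other replication genes, 30 were higher in passage 8 than in passage 6 (median 0.08). There 2, or 4.76%, passed the unadjusted threshold, both higher, where 5.95% of all clusters passed and 3.58% passed upward. Of the list, 0 were called. Against passage 7, 32 were higher (median 0.18) and 8 (19%) passed it, where 7.08% of clusters did, with 0 adjusted calls. Without the ALA array of passage 7, 5 passed, where 1072 of 22104 clusters did. The smallest p was that of the primase subunit Prim1, at 1.01 (SE 0.20, limma adjusted p = 0.0508) with all arrays and 0.75 (adjusted p = 0.0614) without that one. The chromatin assembly factor Chaf1b was at 0.69 (SE 0.15) and 0.75, and the Cdc7 activator Dbf4 at 0.85 (SE 0.22) and 0.55, in the same order. Prim1 averaged 7.72 ± 0.02 at passage 8 and 6.71 ± 0.52 at passage 7, and Dbf4 5.80 ± 0.07 at passage 8 and 4.96 ± 0.76 at passage 7 (SD, n = 4 each).

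Upstream regulators were read in the same way. A list of 16 genes held cyclins, kinases and inhibitors of the G1 phase together with Cdc25a and Wee1. Of the 16, 10 were higher in passage 8 than in passage 6 (median 0.02), with 0 adjusted calls. Wee1, the kinase that restrains the mitotic kinase Cdk1, was at -0.27 (SE 0.08, limma unadjusted p = 0.00921). It was the 1 gene of the list (6.25%) under 0.01, where 5.95% of clusters were. Against passage 7 the same number was higher (median 0.07), and Cdc25a, the phosphatase that opposes Wee1, rose by 0.60 (SE 0.11, limma adjusted p = 0.0385), or 0.52 with an adjusted p of 0.0973 without the ALA array of passage 7. That call is 1 of 16, or 6.25% of the list, where 0.864% of clusters were called. Of 17 regulators of the E2F, RB and DREAM families, 8 were higher in passage 8 than in passage 6 (median -0.05). Among these E2f8, a repressor that is itself an E2F target, rose by 0.82 (SE 0.17, limma adjusted p = 0.0462), and Tfdp2, an E2F partner, was at -0.37 (SE 0.08, adjusted p = 0.0566). E2f8 also rose by 1.10 against passage 7 (SE 0.17, limma adjusted p = 0.0286), or 1.02 with an adjusted p of 0.0954 without the ALA array of passage 7. There Mybl2, the MYB partner of the MuvB complex, was 0.45 higher with all arrays (SE 0.11, limma adjusted p = 0.0825). Without the ALA array of passage 7 it was 0.38 higher (adjusted p = 0.187). The E2f8 call is 1 of 17, or 5.88% of the list, in both comparisons, where 1.91% and 0.864% of all clusters were called.

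Markers of the cells themselves also moved with passage. Of 8 preadipocyte and fibroblast genes, 8 were higher in passage 8 than in passage 6 and limma called 3, or 37.5%, where 1.91% of all clusters were called and 1.31% were called higher. They were the receptor Pdgfrb at 0.44 (adjusted p = 0.041), the collagen Col1a1 at 0.48 (adjusted p = 0.0159) and the transcription factor Sox9 at 0.55 (adjusted p = 0.0378). The mean of this list was 9.54 to 9.83 on the passage 6 arrays, 9.70 to 10.09 at passage 7 and 9.91 to 10.06 at passage 8. In passage 7 against 6, 7 of the 8 were already higher (median 0.21, 0 adjusted calls). In passage 8 against 7, 6 were higher (median 0.10, 0 adjusted calls). Of 9 adipocyte genes, 8 were higher in passage 8 than in passage 6 with 0 adjusted calls. There 3 (33.3%) passed an unadjusted p under 0.01, all higher, where 5.95% of clusters passed. All passage 8 arrays lay above all passage 6 arrays in 5 (55.6%, against 7.13% of clusters) and below in 1 (11.1%, against 5.35%). The mean of the 9 was 11.44 to 11.67 at passage 6, 11.54 to 11.57 at passage 7 and 11.64 to 11.73 at passage 8. Of the 9, 6 were higher in passage 7 than in passage 6 (median 0.03) and 8 in passage 8 than in passage 7 (median 0.15), with 0 adjusted calls in either. For the 9 macrophage, endothelial and muscle genes the mean was 4.91 to 5.07, 4.95 to 5.14 and 4.83 to 4.90 in the same order. The part of these shifts in the cell cycle result was not tested.

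Of the 12 members called in a passage 8 comparison, 10 had a promoter window, 6 for mitosis and 4 for replication. Of these 7 are shown, chosen after the motifs were counted so that windows with and without their group's motif both appear, and Kif18b is added as the gene with the smallest p in the inhibitor arm. Windows of 300 bases, from 250 before to 50 after the annotated start, were taken from RefSeq on build GRCm38.p6, 5′ to 3′ on the gene's strand. Of the 34 genes 29 had a window, 18 for mitosis and 11 for replication. Capitals mark matches on either strand to TTTGAA (the CHR element), TTTCCCGC or TTTGGCGC (E2F sites) and CCAAT (the NF-Y box), so TTCAAA, GCGCCAAA and ATTGG are the same motifs read on the other strand.
Plk1 (chr7:122159185-122159484, plus strand): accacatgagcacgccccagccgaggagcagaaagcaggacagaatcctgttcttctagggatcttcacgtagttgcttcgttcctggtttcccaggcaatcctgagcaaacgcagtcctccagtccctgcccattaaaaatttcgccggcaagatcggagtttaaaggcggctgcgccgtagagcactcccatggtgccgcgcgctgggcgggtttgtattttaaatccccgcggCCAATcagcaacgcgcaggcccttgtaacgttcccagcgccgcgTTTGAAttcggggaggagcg
Kif23 (chr9:61946750-61947049, minus strand): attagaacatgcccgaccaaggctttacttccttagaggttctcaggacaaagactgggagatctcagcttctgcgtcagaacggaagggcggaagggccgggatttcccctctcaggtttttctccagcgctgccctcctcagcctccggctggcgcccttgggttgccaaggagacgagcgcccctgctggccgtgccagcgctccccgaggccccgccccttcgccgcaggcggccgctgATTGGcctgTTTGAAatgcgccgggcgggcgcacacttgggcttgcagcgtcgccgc
Kif11 (chr19:37376132-37376431, plus strand): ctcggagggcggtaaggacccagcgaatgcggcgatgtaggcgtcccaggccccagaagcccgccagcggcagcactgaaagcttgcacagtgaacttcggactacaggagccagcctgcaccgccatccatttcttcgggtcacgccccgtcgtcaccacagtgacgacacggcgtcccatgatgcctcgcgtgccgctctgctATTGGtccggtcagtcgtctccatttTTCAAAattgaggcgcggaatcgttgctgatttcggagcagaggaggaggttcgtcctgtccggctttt
Cenpe (chr3:135212313-135212612, plus strand): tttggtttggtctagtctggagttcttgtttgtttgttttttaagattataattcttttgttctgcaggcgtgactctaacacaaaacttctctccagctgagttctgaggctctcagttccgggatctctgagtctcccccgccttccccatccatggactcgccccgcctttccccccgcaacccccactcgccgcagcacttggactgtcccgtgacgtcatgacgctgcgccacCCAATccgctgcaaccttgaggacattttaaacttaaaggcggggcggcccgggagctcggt
Kif18b (chr11:102925075-102925374, minus strand): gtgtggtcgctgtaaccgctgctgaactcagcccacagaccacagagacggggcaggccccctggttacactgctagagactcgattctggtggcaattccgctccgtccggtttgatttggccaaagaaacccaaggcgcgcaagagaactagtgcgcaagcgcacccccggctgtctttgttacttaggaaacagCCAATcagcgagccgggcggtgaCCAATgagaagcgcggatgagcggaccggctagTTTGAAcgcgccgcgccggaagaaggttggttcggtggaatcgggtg
Mcm5 (chr8:75109259-75109558, plus strand): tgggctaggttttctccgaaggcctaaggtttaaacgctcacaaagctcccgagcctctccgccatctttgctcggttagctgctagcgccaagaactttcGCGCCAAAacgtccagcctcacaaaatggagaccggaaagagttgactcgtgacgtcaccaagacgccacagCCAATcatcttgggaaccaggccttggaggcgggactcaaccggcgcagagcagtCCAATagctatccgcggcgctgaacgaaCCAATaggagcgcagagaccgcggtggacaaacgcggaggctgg
Mcm6 (chr1:128359656-128359955, minus strand): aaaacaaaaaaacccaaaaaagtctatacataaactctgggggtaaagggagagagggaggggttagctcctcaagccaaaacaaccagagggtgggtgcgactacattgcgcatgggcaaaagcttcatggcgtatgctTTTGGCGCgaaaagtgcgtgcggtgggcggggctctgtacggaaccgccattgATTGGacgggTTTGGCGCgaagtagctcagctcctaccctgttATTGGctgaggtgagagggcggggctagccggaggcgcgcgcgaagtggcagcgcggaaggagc
Rrm2 (chr12:24708004-24708303, plus strand): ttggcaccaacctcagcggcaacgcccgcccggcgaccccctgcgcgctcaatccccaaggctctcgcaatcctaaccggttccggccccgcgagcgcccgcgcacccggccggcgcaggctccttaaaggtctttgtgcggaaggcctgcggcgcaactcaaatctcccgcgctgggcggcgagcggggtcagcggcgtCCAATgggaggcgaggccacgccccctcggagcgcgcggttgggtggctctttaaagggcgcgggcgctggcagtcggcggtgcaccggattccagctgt

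The mitosis promoters of Plk1, Kif23 and Kif18b each held a CHR match whose first base lay 30, 2 and 3 bases after the start, and Kif11 one that lay 19 bases before it, at -19. All 4 also held an NF-Y box, and none held an E2F match. Cenpe held 1 NF-Y box and neither of the other motifs. The replication promoters of Mcm5 and Mcm6 held E2F matches, 1 and 2 of them, and no CHR match, with 3 and 2 NF-Y boxes. Rrm2 held 1 NF-Y box only, and Tyms, which is not shown, held no match to any of the motifs. Over all 10 called members with a window, 5 of 6 mitosis promoters held a CHR match and 2 of 4 replication promoters an E2F match.

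Over the whole set, 14 of 18 mitosis promoters (77.8%) and 1 of 11 replication promoters (9.09%, Mcm2) held a CHR match, which 20.2% of the 27025 genes of the table had. E2F matches were in 0 of 18 mitosis promoters and in 5 of 11 replication promoters (45.5%: Mcm3, Mcm5, Mcm6, Cdc6 and Cdt1), against 1.8% of all genes. NF-Y boxes were in 83.3% of the mitosis and 63.6% of the replication promoters, against 41.1% of all genes. Of 18 CHR matches in mitosis promoters, 14 began between 100 bases before and 50 after the start. Kif18b held a CHR match with a passage 8 against 6 difference of 0.04 (SE 0.09), and Cdt1 held an E2F match although its passage 8 arrays were the lower ones. A match of letters is a description of the window and not evidence of binding.

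**Figure D4:**
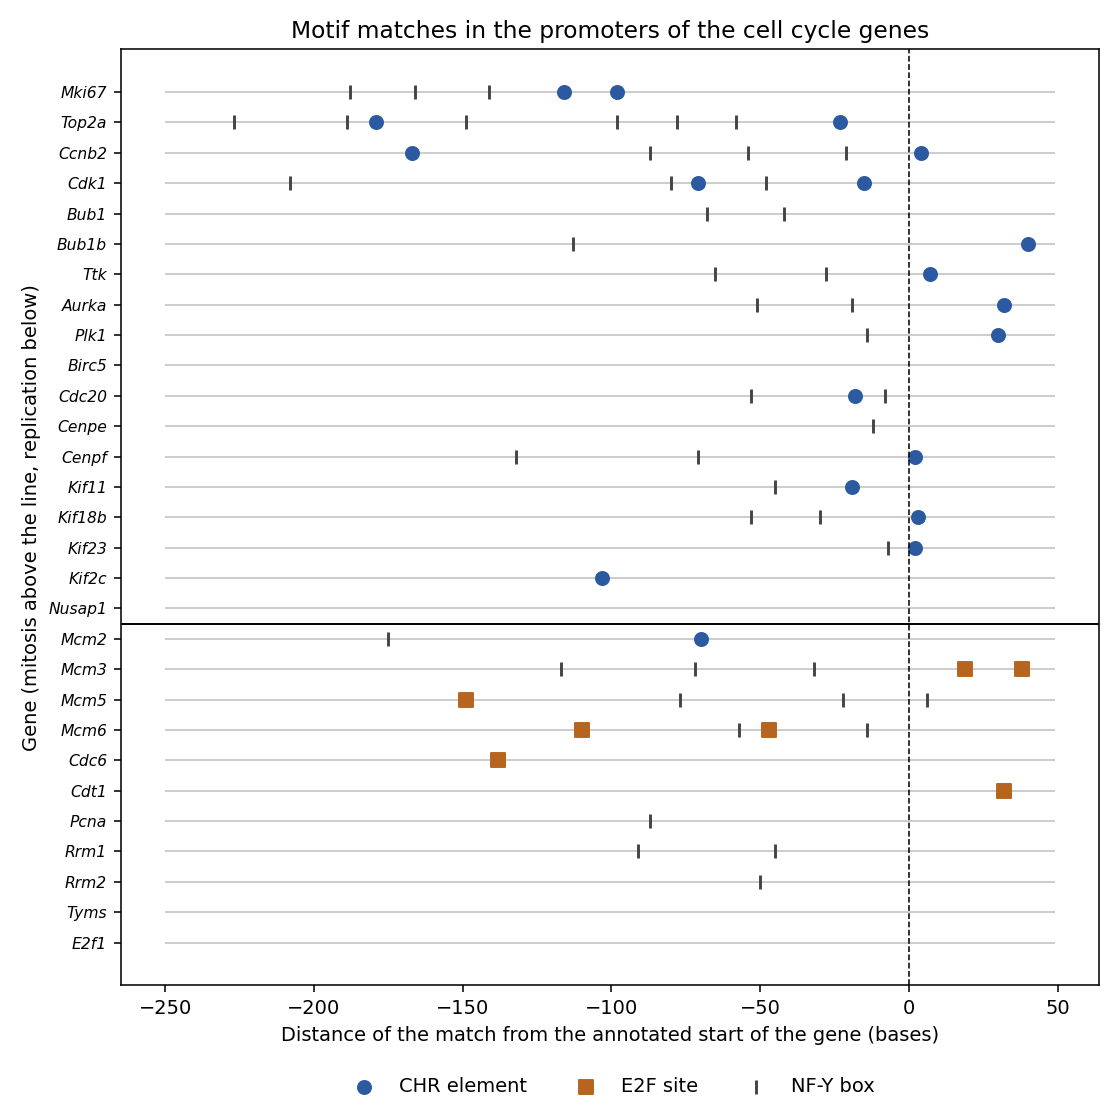
Positions of motif matches in the 29 promoter windows, by distance in bases from the annotated start of the gene, with CHR elements as blue circles, E2F sites as brown squares and NF-Y boxes as ticks. CHR matches lie in 14 of 18 mitosis promoters and E2F matches in 5 of 11 replication promoters, and 1 replication promoter (Mcm2) has a CHR match.

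Treatments gave no adjusted call among these genes. In none of the 4 treatment comparisons or the interaction did limma call 1 of the 34 genes at an adjusted p under 0.05, and it called 0% of all clusters in each. Kif18b was the 1 gene that passed the unadjusted p under 0.01 named by the series, in the inhibitor arm. It was listed with earlier results of these data known. Its p and its alternatives below are therefore no independent test.

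ALA against control left 17 of the 34 genes higher and 17 lower, with medians of -0.03 over the mitosis and 0.04 over the replication genes. When the ALA array of passage 7 was left out, 26 were higher and the medians were 0.10 and 0.14. No member passed an unadjusted p under 0.01, where 0.525% of clusters did. Cdc6 came nearest, with signals of 5.99, 5.84 and 5.92 with ALA at passages 6, 7 and 8, and of 6.31, 6.24 and 6.45 in control. All ALA arrays lay below all control arrays, by -0.42 (SE 0.17, unadjusted p = 0.0288, limma adjusted p = 1.00). Cdc6 was the 1 member (2.94%) separated in this way, where 2.91% of clusters were. Without the ALA array of passage 7 the difference was -0.38 (unadjusted p = 0.0717). With passage as a block, the unadjusted p of Cdc6 was 0.0086 and the adjusted p 0.901. Cdt1 followed with a difference of 0.19 (SE 0.12) and Top2a with -0.30 (SE 0.25), and Top2a was at -0.00357 without the ALA array of passage 7.

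The inhibitor against control left 22 of 34 genes lower, with medians of -0.07 over the mitosis and 0.00 over the replication genes. At an unadjusted p under 0.01 there was 1 member, where 0.855% of clusters passed. That gene, Kif18b, encodes a kinesin of the plus ends of astral microtubules. Its signals at passages 6, 7 and 8 were 6.59, 6.51 and 6.60 with the inhibitor and 7.23, 7.13 and 7.08 in control. The 3 inhibitor arrays lay below all other arrays of the study. Of the members, 1 (2.94%) had all inhibitor arrays below all control arrays, where 4.97% of clusters did. Kif18b averaged 6.57 ± 0.05 with the inhibitor and 7.15 ± 0.08 in control (SD, n = 3 each), a fold of 0.669 (log2 difference -0.58, SE 0.11, unadjusted p = 0.000149, limma adjusted p = 0.828). The adjusted p ran from 0.204 to 1.00 over 23 alternatives and the unadjusted p from 3.8e-05 to 0.00692, with the difference between -0.63 and -0.53.

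In the fit without passage, Mki67 was the next in the inhibitor arm, with a difference of -0.34 (SE 0.23). It averaged 8.51 ± 0.41 with the inhibitor and 8.85 ± 0.14 in control (SD, n = 3 each). The step was -0.59 at passage 6, -0.38 at passage 7 and -0.05 at passage 8. Birc5 followed at -0.18 (SE 0.12). With passage as a block, Mcm6 came next after Kif18b, at -0.30 (SE 0.11, limma unadjusted p = 0.0184). Mki67 (unadjusted p = 0.0332) and Ccna2 at -0.27 (SE 0.11, unadjusted p = 0.0388) followed it. Their limma adjusted p with the block were 0.717, 0.725 and 0.728. These 3 were among 8 members (23.5%) lower with the inhibitor at every passage, where 15.9% of clusters were. At passage 6 alone 18 of the 22 mitosis genes were lower with the inhibitor than in control (median -0.25), whereas the medians were -0.02 at passage 7 and 0.01 at passage 8, with 1 array per arm. In this comparison all 8 preadipocyte and fibroblast genes were lower with the inhibitor (median -0.25, 0 adjusted calls), with a list mean of 9.54 to 9.91 against 9.83 to 10.03 in control. Of 9 adipocyte genes, 7 were lower (median -0.08), as were 6 of 9 macrophage, endothelial and muscle genes (median -0.04), also with 0 adjusted calls. The part of these shifts in the Kif18b difference was not tested.

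ALA plus inhibitor against ALA left 21 of 34 genes lower, with medians of -0.05 over the mitosis and 0.00 over the replication genes, and no member passed an unadjusted p under 0.01, where 1.47% of clusters did. Without the ALA array of passage 7, 3 genes were higher, and the medians were -0.16 and -0.05. Kif18b had 6.85, 6.82 and 6.91 at passages 6, 7 and 8 with both agents and 6.97, 6.97 and 7.23 with ALA at the same passages. The arrays did not overlap, but the difference of -0.20 (SE 0.11) had an unadjusted p of 0.0929. Such a separation downward was found in 2 members (5.88%), where 6.85% of clusters had it. It was -0.24 when the ALA array of passage 7 was left out (unadjusted p = 0.0555). Mki67 was at -0.37 (SE 0.23) and Birc5 at -0.17 (SE 0.12). With passage as a block, which the pairing of these samples allows, other genes had the smaller p: Mki67 at -0.37 (SE 0.14, unadjusted p = 0.0231), Kif20a at -0.30 (SE 0.13, unadjusted p = 0.043) and Ccna2 at -0.26 (SE 0.11, unadjusted p = 0.0478), against 0.0752 for Kif18b. Each of the 3 was lower with both agents than with ALA at every passage, and the limma adjusted p with the block were 0.422, 0.457 and 0.469. In total 9 members (26.5%) were lower at every passage, where 18.1% of clusters were. All 8 preadipocyte and fibroblast genes were lower as well (median -0.29, 0 adjusted calls), with a list mean of 9.57 to 9.91 with both agents against 9.79 to 10.09 with ALA. So were 6 of 9 adipocyte genes (median -0.09) and 6 of 9 macrophage, endothelial and muscle genes (median -0.05), with 0 adjusted calls. The part of these shifts in the differences of the members was not tested.

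ALA plus inhibitor against the inhibitor also gave no member at an unadjusted p under 0.01, where 0.728% of clusters passed. Kif18b was 0.29 higher with both agents than with the inhibitor (SE 0.11, unadjusted p = 0.0196, limma adjusted p = 1.00), on 3 of 3 passages. That held for 2 members (5.88%), where it held for 12.7% of clusters. With passage as a block, the limma unadjusted p of Kif18b was 0.0154 (adjusted p = 0.938). Rrm2, the other of the 2, was at 0.24 (SE 0.11, limma unadjusted p = 0.0477 with the block, adjusted p = 0.9998). The interaction, which asks whether the ALA difference changes with the inhibitor, gave 0 members at an unadjusted p under 0.01, where 0.638% of clusters passed. For Kif18b the interaction was 0.38 (SE 0.15, unadjusted p = 0.0278, limma adjusted p = 1.00), and 0.34 without the ALA array of passage 7. With the block its limma unadjusted p was 0.0218 (adjusted p = 0.996).

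**Figure D5:**
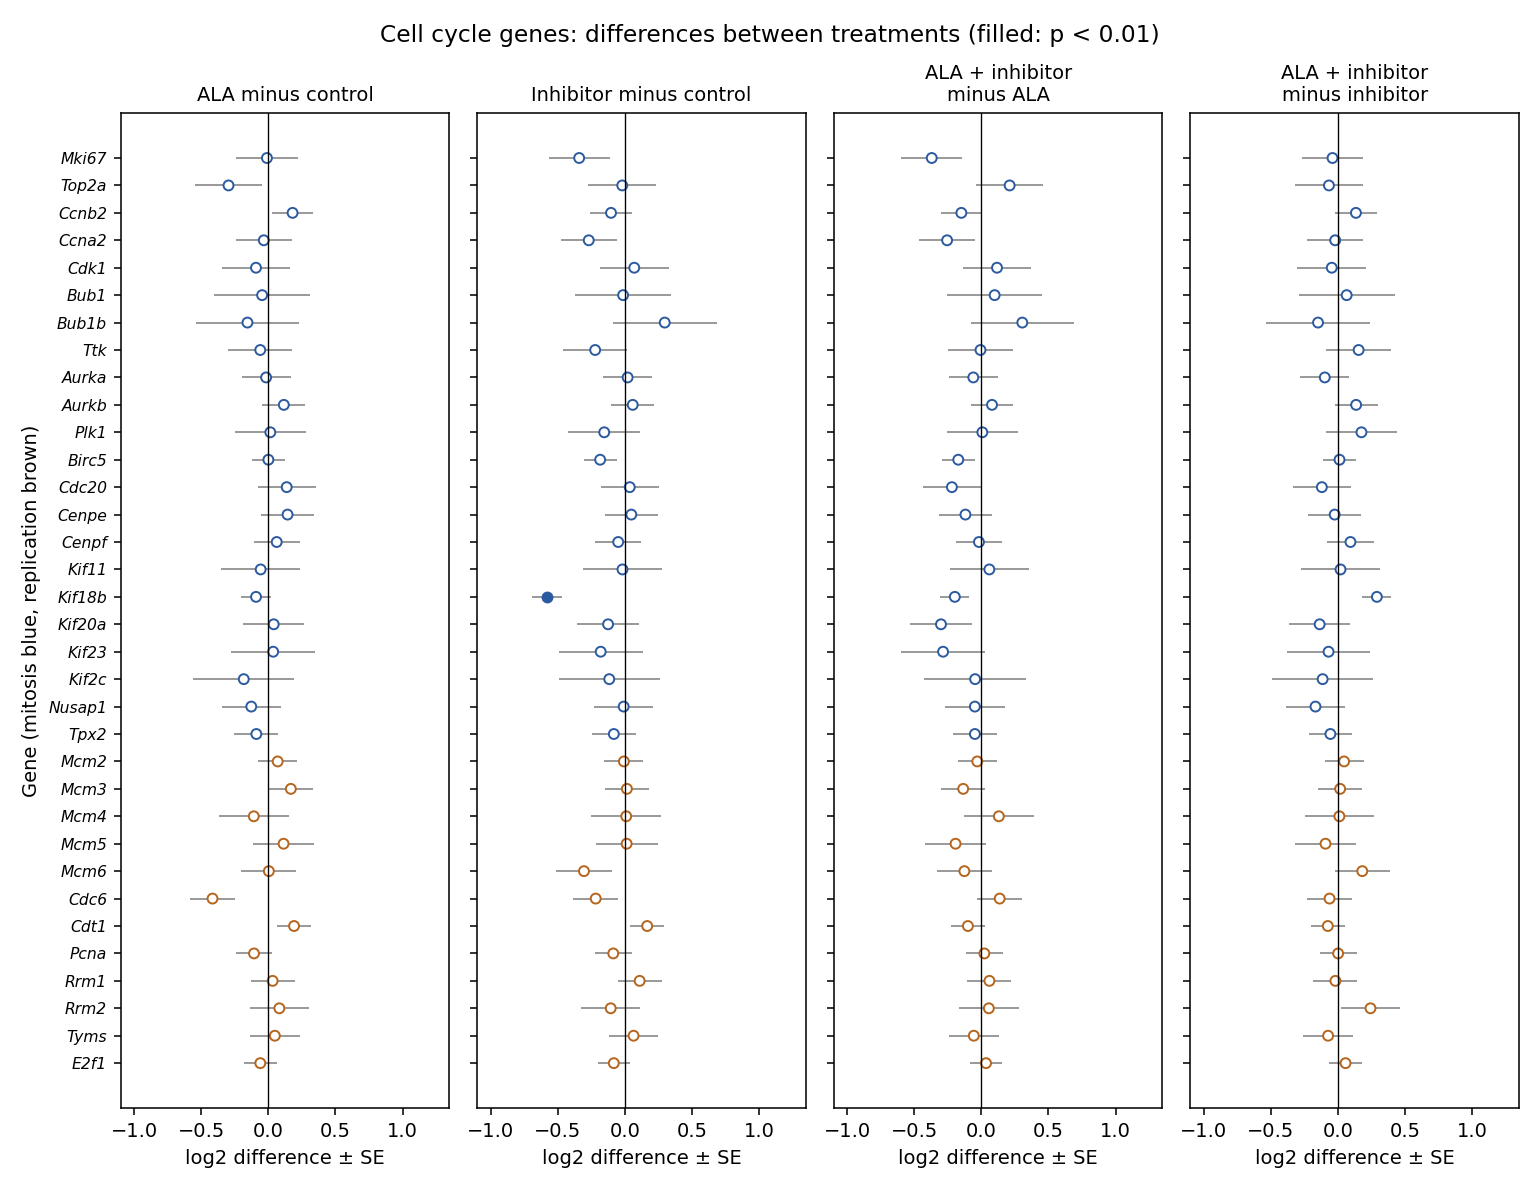
Log2 difference ± SE of each of the 34 genes in 4 treatment comparisons (limma, 3 arrays per treatment), with mitosis genes in blue and replication genes in brown. Points scatter about 0 in every panel, and Kif18b at -0.58 in inhibitor minus control is the only filled point. Kif18b was listed with earlier results of these data known.

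In the wider cell cycle lists 0 genes were called with treatment at an adjusted p under 0.05. At an unadjusted p under 0.01, 1 of the 42 other replication genes (2.38%) passed in each of the 3 comparisons named by the series. The shares of all clusters were 0.525%, 0.855% and 1.47% in ALA against control, inhibitor against control and the combination against ALA. Pola1, a polymerase alpha subunit, was 0.42 higher with ALA than in control (SE 0.14, unadjusted p = 0.00881, limma adjusted p = 0.9998). Without the ALA array of passage 7 it was 0.45 higher (unadjusted p = 0.0112). Its averages, 5.66 with ALA and 5.24 in control, lie under the lowest array median. Clspn, the claspin of the replication checkpoint, was at -0.65 in inhibitor against control (SE 0.21, unadjusted p = 0.00812) and at -0.68 in ALA plus inhibitor against ALA (SE 0.21, unadjusted p = 0.00596), with limma adjusted p of 0.998 and 0.653. Without the ALA array of passage 7 the second was -0.47 (unadjusted p = 0.0314). Its signals, 4.40 ± 0.28 with the inhibitor and 5.05 ± 0.16 in control (SD, n = 3 each), lie under the lowest array median.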

How the data were processed

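RNA from 12 cultures of 3T3-L1 adipocytes was measured on Affymetrix whole-transcript arrays, 1 array per treatment and passage, and samples were grouped by the treatment and passage in their labels. The deposited table held the authors' log2 signals, with the transcript cluster as the unit. The submitters' processing notes name RMA, and the sources used here give neither its version nor its library file. RMA subtracts background, brings arrays to a common distribution and combines the probes of a cluster, and it compresses differences between dim clusters. Arrays give no read depth, so the number of arrays limits the precision.

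All 22104 clusters entered the tests with no filter. Of them 19509 carried 1 gene symbol in the annotation table, and the cluster with the highest mean was used per gene. Testing used limma 3.58.1 (lmFit and eBayes) under R 4.3.3, with 1 coefficient per treatment for treatments, and with treatment and passage as additive terms for passages. Two-sided p-values were adjusted over all clusters by Benjamini-Hochberg, with a threshold of 0.05, and the series' unadjusted threshold of 0.01 was counted beside it. The design text names weighted least squares without the weights, so array weights were an alternative, as were passage as a block, an intensity trend, quantile normalization, median centring, leaving out the dimmest 30% of clusters, only the arrays compared, the mean of all clusters of a gene, and leaving out each array or passage. The scripts were tested on simulated data.

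Passage numbers come from the labels. Deviations from group means correlated between same-passage arrays at 0.16 to 0.24 for ALA plus inhibitor against ALA, 0.08 to 0.36 for inhibitor against control and 0.01 to 0.46 for ALA against control. For ALA plus inhibitor against the inhibitor the range was 0.09 to 0.27. Each treatment was run once at each passage, so the design pairs the arrays by passage in every comparison. The treatment fit without the block leaves passage differences in its residual. In ALA plus inhibitor against ALA the block changed no call.

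Members and gene lists were chosen with earlier results of these data known, Kif18b among them. Values on every array were given for a fixed list (Mki67, Top2a, Cdk1, Kif18b, Mcm2, Pcna, Rrm2 and E2f1) and for up to 3 members with the smallest p per comparison; other lists were named up to 3 genes per comparison at an unadjusted p under 0.01. Plk1, Kif20a, Mcm6 and Tyms were named as called members.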

Additional observations from a re-analysis of the deposited data

How the results depend on the processing

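Medians over the mitosis and the replication genes in both passage 8 comparisons kept their direction under every alternative run, and counts of adjusted calls did not hold. In passage 8 against 6 the count of 8 was 16 with an intensity trend, 5 with quantile normalization, 5 with arrays centred on their medians and 1 with only the arrays compared, and 0 to 8 when single arrays were left out. In passage 8 against 7 the count of 6 was 11 with array weights, 17 with an intensity trend, 1 with quantile normalization, 14 without the dimmest 30% of clusters and 0 with only the arrays compared, and 0 to 3 when single arrays were left out. Shares over all clusters under most of these settings are not given here, so the counts are not read as results about the members. At an unadjusted p under 0.01 the counts were 11 to 21 and 14 to 21 with arrays left out. With passage as a replicate block, ALA against control had 1 member (Cdc6) at an unadjusted p under 0.01 in place of 0, and with arrays left out the count was 0 to 1. With array weights ALA plus inhibitor against the inhibitor had 1 in place of 0. The block changed no other call. Treatment medians lay near 0 and changed sign between left-out arrays, for example from -0.16 to 0.15 over the mitosis genes in ALA against control. The causes were not tested. Dim signals and 3 or 4 arrays per group limit what can be seen.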
